A study of Mus musculus with 6 samples.

Results

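Ribosomal protein genes were taken as the RefSeq protein-coding genes of mm10 (GRCm38.p6) whose symbol is Rpl or Rps followed by a number and an optional ending, together with *Rplp0*, *Rplp1*, *Rplp2* and *Rpsa*. This rule gave 85 genes of the 21468 protein-coding genes with a known strand, and it used no measured value. They comprise 50 *Rpl* genes of the large subunit, 31 *Rps* genes of the small subunit and the 4 genes added by name. The gene bodies run from 592 to 11774 nt with a median of 3175 nt, against 17536 nt over all protein-coding genes.

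The libraries are AGO2 chimeric eCLIP of whole brain from C57Bl/6J mice at postnatal day 0. In this method RNA bound by AGO2 is immunoprecipitated (IP), and some miRNAs are ligated to the mRNA they sat on, so that a chimeric read names both. There was 1 WT IP and 2 IPs of *Mov10* Deletion brains (replicates 1 and 2), and each was set by the authors against a size-matched input. By the study's methods, *Mov10* Deletion mice came from crossing an *Emx1*-Cre floxed *Mov10* line with *Mov10*+/- heterozygotes, and *Mov10* encodes an RNA helicase that binds AGO2. *Emx1*-Cre acts in excitatory neurons of neocortex and hippocampus, whereas the tissue sampled was the entire brain. With 1 WT library no test between the genotypes was possible, and the differences below are descriptions of 3 libraries.

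Ribosomal proteins, with the rRNAs, make up the 2 subunits of the ribosome. Their mRNAs are short and among the most abundant of any growing cell, and most begin with a terminal oligopyrimidine (TOP) tract through which their translation is regulated together. Many of their introns hold small nucleolar RNAs (snoRNAs), which guide modification of rRNA and are released from the spliced intron. AGO2 carries miRNAs that pair with mRNAs mainly through bases 2 to 8, the seed.

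Of the 24 miRNAs joined to ribosomal protein genes in any library, 22 had a mature sequence in the RefSeq table for GRCm38.p6. Those with more than 1 assignment, together with miR-15b-5p, which was joined to the same cluster as miR-15a-5p and miR-16-5p, are shown here with the seed in capitals. miR-124-3p had the most assignments in each library and is named only.

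miR-9-5p: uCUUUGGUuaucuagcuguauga
miR-15a-5p: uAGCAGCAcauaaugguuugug
miR-15b-5p: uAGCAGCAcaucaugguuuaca
miR-16-5p: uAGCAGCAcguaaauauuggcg
miR-125b-5p: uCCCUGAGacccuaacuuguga
miR-128-3p: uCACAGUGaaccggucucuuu
miR-219a-5p: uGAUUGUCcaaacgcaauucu

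miR-15a-5p, miR-15b-5p and miR-16-5p have the same seed, AGCAGCA, and all 3 were joined to a single ribosomal protein gene, *Rpl14*. The 22 miRNAs carried 17 different seeds. let-7e-5p and let-7i-5p also share a seed, as do miR-181a-5p, miR-181b-5p and miR-181c-5p, with 1 assignment each.

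The 359172 WT clusters and the 616014 and 616005 clusters of *Mov10* Deletion replicates 1 and 2 were deposited with a log2 ratio of IP over input and a −log10 p. In the 3 libraries all 6 neuronal marker genes carried clusters (328 to 526 clusters). So did all 5 genes of radial glia and progenitors (39 to 69 clusters) and all 4 of astrocytes (145 to 234). All 5 genes of the oligodendrocyte lineage had them as well (53 to 124). Of the 4 skeletal muscle genes 1 or 2 did (2 to 4 clusters). All 5 blood genes carried clusters too (8 or 9 clusters), with at least 375, 353 and 137 IP reads. Of the 4 liver genes *Afp* and *Apoa1* had none, *Alb* had at least 1, 3 and 11 IP reads, and *Ttr*, which is also made by the choroid plexus of the brain, had at least 447, 604 and 314. The part of these other cells in the results was not tested. *Mov10* itself carried 11 clusters in WT, 1 of them enriched, and 9 in each *Mov10* Deletion library, none enriched. The 2 *Mov10* Deletion lists have nearly the same coordinates: of 317 and 318 ribosomal protein clusters, 311 were identical, against 1 shared between WT and replicate 1. Cluster counts of the 2 *Mov10* Deletion libraries are therefore not separate observations, but their ratios are. Over those 311 clusters the log2 ratio of replicate 2 minus replicate 1 had a median of -0.45 and an SD of 2.12 (Pearson r = 0.33 across clusters, which share reads and depth), so a single cluster's ratio was loosely fixed. Over the 594498 identical clusters of all protein-coding genes, r was 0.038 and the SD 2.09.

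Nearly all ribosomal protein genes carried AGO2 clusters. A cluster lying wholly inside the gene on its strand was found in 77 of 85 genes in WT (237 clusters) and in 73 of 85 in each *Mov10* Deletion replicate (317 and 318 clusters). That is 90.6% and 85.9% of the genes, beside 61.1% of all protein-coding genes in WT and 64.5% in each *Mov10* Deletion replicate. Being short, each gene held few clusters (median 3 in WT and 4 in each *Mov10* Deletion replicate), although per kb of gene body they were denser (0.766, 1.02 and 1.03 clusters per kb in WT, replicate 1 and replicate 2) than over all protein-coding genes (0.333, 0.571 and 0.571). *Rps15a*, which has the longest gene body, held the most, with 11, 14 and 14.

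A cluster was present in all 3 libraries for 70 genes and in at least 1 for 80. Over all protein-coding genes these numbers were 12586 and 14363, much the same proportion. The 5 with none were *Rpl10l*, *Rpl39l* and *Rpl3l*, which are paralogs of restricted expression, and *Rps27* and *Rps27a*. *Rpl18*, *Rpl32l*, *Rpl35*, *Rpl36al*, *Rpl39*, *Rps23* and *Rps6* had clusters only in WT, and *Rpl22l1*, *Rpl36a* and *Rps29* only in the *Mov10* Deletion lists. None of these 10 genes had an enriched cluster. How many of all protein-coding genes had clusters in 1 genotype only was not counted, so whether these 10 are unusual is not known.

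The recovery of ribosomal protein clusters by the AGO2 IP was low. Their median log2 IP over input (WT, then *Mov10* Deletion replicates 1 and 2) was 0.27, 0.80 and 0.67, while over all protein-coding genes it was 0.76, 1.12 and 1.25. The ribosomal protein median was below that of all genes in each of the 3 libraries. This was not particular to the family, as translation and other TOP mRNAs had medians of 0.32, 0.80 and 0.25. Mitochondrial ribosomal proteins (0.76, 1.29 and 1.25) and respiratory chain subunits (0.76, 1.38 and 1.25) were not below all genes. Where reads are few these ratios are coarse. A log2 of 0.76 in WT is that of 2 IP reads to 1 input read. In replicate 2 a log2 of 1.25 is that of 1 to 1, so equal medians at these values say little. In whole tissue, fewer cells of a type and less RNA per cell cannot be told apart. A log2 below 0, more reads in the input than in the IP after scaling, was found for 99 of 237, 95 of 317 and 117 of 318 ribosomal protein clusters (41.8%, 30.0% and 36.8%), against 27.8%, 24.3% and 26.4% of all clusters. Of these ribosomal protein clusters below 0, 41, 30 and 33 lay on snoRNAs. Here and below, a cluster on a snoRNA is one that overlaps it. Several of the snoRNAs have no strand given and were counted on either strand. Whether the reads came from the snoRNA or from its host transcript was not tested. Input reads were also more often plentiful: 19.0%, 18.6% and 18.9% of ribosomal protein clusters rested on at least 10 input reads, against 9.68%, 12.8% and 8.18% of all clusters. Clusters on snoRNAs had a median of 13, 23 and 24.5 input reads, so they supplied many of these. Below log2 0 the input reads are only the smallest that give the ratio. By these reads, ribosomal protein clusters with under 10 input reads had medians of 0.60, 1.12 and 1.25. Over all protein-coding genes such clusters had 0.76, 1.38 and 1.25. With at least 10 input reads the medians were -1.74, -0.39 and -0.91, against -0.14, 0.06 and -0.41. In replicate 2 the ribosomal protein median was thus lower only among the deeper clusters.

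**Figure D1:**
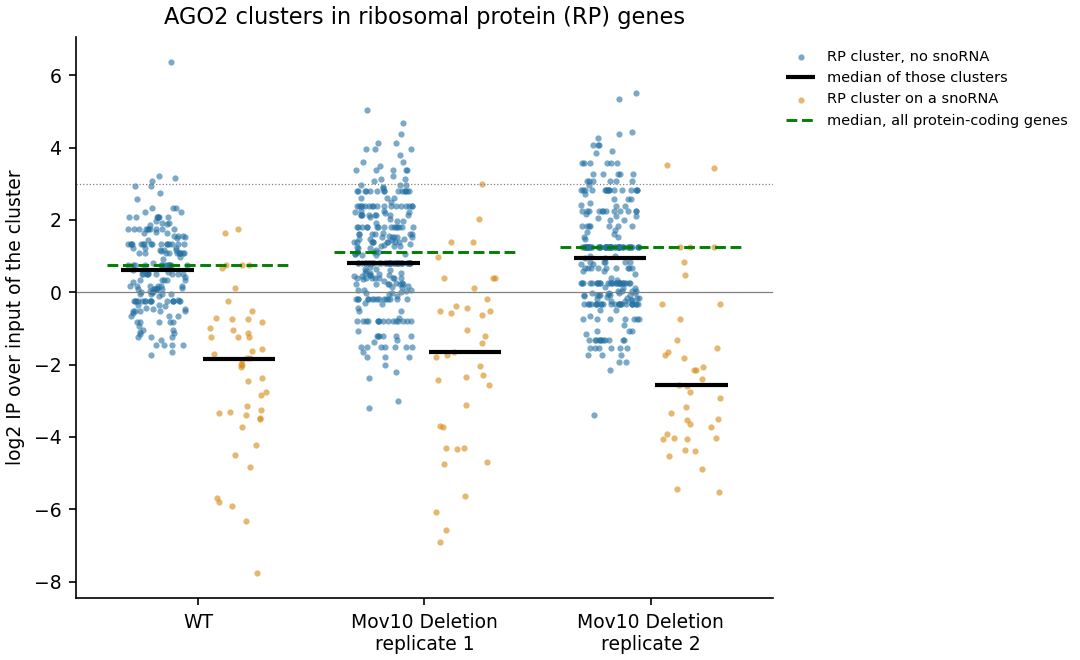
Log2 IP over input of each AGO2 cluster in ribosomal protein genes, by library, with clusters on a snoRNA shown apart (1 point per cluster, black bars are medians, the green dashed line is the median over all protein-coding genes, the dotted line is the threshold of 3). The clusters on snoRNAs have medians of -1.85, -1.65 and -2.58, and the others 0.60, 0.80 and 0.93.

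The lowest ratios were those of clusters on snoRNAs. Of the 85 genes 30 (35.3%) hold a RefSeq snoRNA, against 403 of the other 21383 protein-coding genes (1.88%). Clusters touching a snoRNA numbered 48, 39 and 40 in WT, replicate 1 and replicate 2, with a median log2 of -1.85, -1.65 and -2.58. Without them the medians of the ribosomal protein clusters were 0.60, 0.80 and 0.93, which is higher than with them in WT and replicate 2, the same in replicate 1, and still below all protein-coding genes in each library. Clusters on snoRNAs of other protein-coding genes were low as well, with medians of -1.83, -0.99 and -1.55.

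The gene with the most input reads in WT was of this kind. At *Rpl30*, whose protein lies in the large subunit, a cluster on the snoRNA LOC115488553 (15:34440817-34440925) had log2 -5.91 in WT, a ratio of 8 IP reads to at least 405 input reads. The *Mov10* Deletion replicates gave -6.90 and -5.45 on a narrower cluster there. In *Rpsa*, a small-subunit protein also known as the laminin receptor, clusters on *Gm26448* lay at -3.35 and -3.39 in WT, between -2.03 and -1.20 in replicate 1 and between -4.90 and -4.07 in replicate 2. All 3 libraries were thus input-heavy at these snoRNAs.

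The proteins of the ribosomal stalk differed among themselves. *Rplp1* had 2 clusters in each library. The one nearer its 3′ end had a log2 of 3.22 in WT (11 IP reads to 1 input read), 2.18 in replicate 1 (26 to 10) and 2.71 in replicate 2 (33 to 12), and it reached the threshold for enrichment in none, in WT for its −log10 p of 2.07. *Rplp0*, the anchor of the stalk, had median ratios of 0.34, -1.52 and 3.06, so that its *Mov10* Deletion replicates lay on either side of WT. In *Rplp2* the lowest cluster of each library lay on *Snora52*, at -5.80, -3.69 and -5.51, and its highest was at 0.11, 1.48 and 0.77.

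An enriched cluster was one with log2 of at least 3 and −log10 p of at least 3. Over a single input read this takes at least 16 IP reads in WT, 9 in replicate 1 and 8 in replicate 2, so the threshold was harder to reach in WT. By this rule 2 ribosomal protein genes had an enriched cluster in WT, 5 in replicate 1 and 7 in replicate 2. These are 2.60%, 6.85% and 9.59% of the genes with a cluster, where the background over all protein-coding genes was 20.5%, 45.4% and 35.7%. Because a long gene has more clusters and so more chances, the share of clusters is the closer comparison. It was 0.844% in WT (2 of 237, exact 95% interval 0.102 to 3.01%), 3.47% in replicate 1 (11 of 317, 1.74 to 6.12%) and 3.14% in replicate 2 (10 of 318, 1.52 to 5.71%). The background per cluster was 2.15%, 5.19% and 3.09%. It lies within the interval in each library, so a lower share of enriched clusters was not detectable at this depth, and replicate 2 was at the background. The intervals cover counting error only. They count adjoining clusters as separate although these can share reads, so they are too narrow. The 11 enriched clusters of replicate 1 lay in 5 genes and the 10 of replicate 2 in 7.

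**Figure D2:**
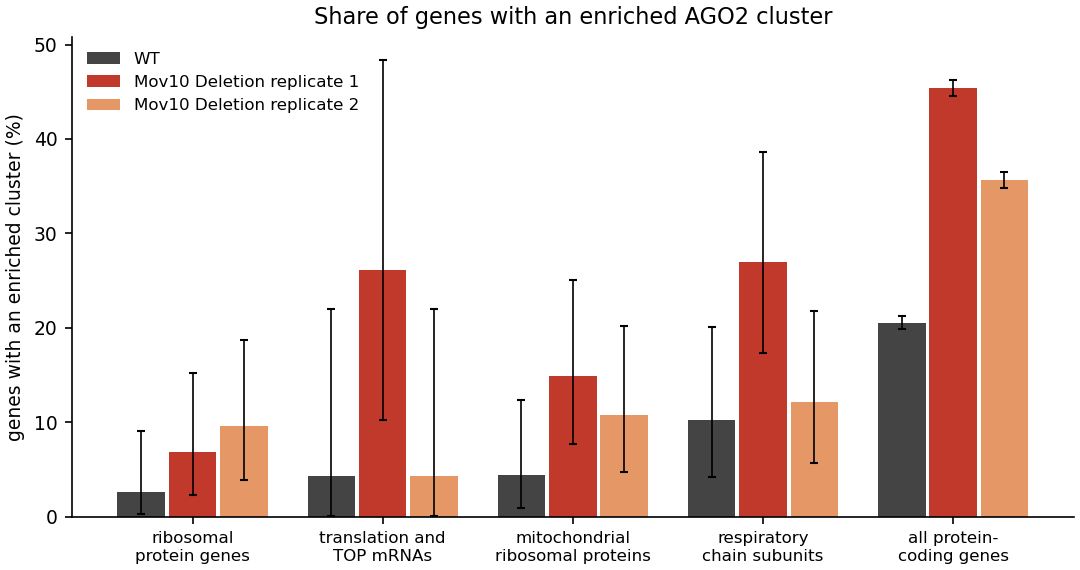
Percent of genes with at least 1 enriched AGO2 cluster among the genes of each list that had a cluster, by library (bars, with exact 95% binomial intervals). Ribosomal protein genes stand at 2.60%, 6.85% and 9.59%, below all protein-coding genes at 20.5%, 45.4% and 35.7%.

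Counted by genes, other short or co-regulated lists were also below the whole in each library. Among 24 genes of translation and other TOP mRNAs, 1, 6 and 1 had an enriched cluster in WT, replicate 1 and replicate 2. Among mitochondrial ribosomal proteins the counts were 3 of 68, 11 of 74 and 8 of 74 genes with a cluster, and among respiratory chain subunits 7 of 68, 20 of 74 and 9 of 74. Counted by clusters this did not hold throughout. The enriched share was 0.448%, 4.47% and 0.344% for translation and TOP mRNAs, 0.789%, 2.53% and 3.55% for mitochondrial ribosomal proteins and 1.90%, 6.14% and 2.81% for respiratory chain subunits, so that the respiratory chain was above the background in replicate 1 and the mitochondrial ribosomal proteins in replicate 2. *Fau*, which encodes a ribosomal protein fused to a ubiquitin-like one, had no cluster. *Rack1*, *Eef1a1*, *Eef2*, *Tpt1*, *Pabpc1* and *Npm1* carried clusters and none was enriched in any library.

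Across libraries, 3 ribosomal protein genes were enriched in both *Mov10* Deletion replicates, *Rpl13*, *Rpl14* and *Rps13* (3.75% of the 80 with a cluster in any library; background 26.0%). *Rpl13* and *Rpl14* were enriched in all 3 libraries (2.50%; background 14.5%). None was enriched in WT only (background 1.01%), and *Rps13* was the 1 gene enriched in both *Mov10* Deletion replicates and not in WT (1.25%; background 11.5%). Of the 9 genes enriched in any library, 6 were enriched in 1 *Mov10* Deletion replicate and not in the other (66.7%; background 49.2% of the 7635 genes enriched in any library).

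WT was as often above as below when each gene's median log2 was centred on the median of all clusters in that library. Of 70 ribosomal protein genes with a cluster in all 3 libraries, WT was above both *Mov10* Deletion replicates in 21 (30%; background 29.2%) and below both in 21 (30%; background 19.6%). The medians of these centred values were -0.28 in WT, -0.38 in replicate 1 and -0.46 in replicate 2, and the *Mov10* Deletion replicates differed from each other by a median of 1.13 per gene.

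**Figure D3:**
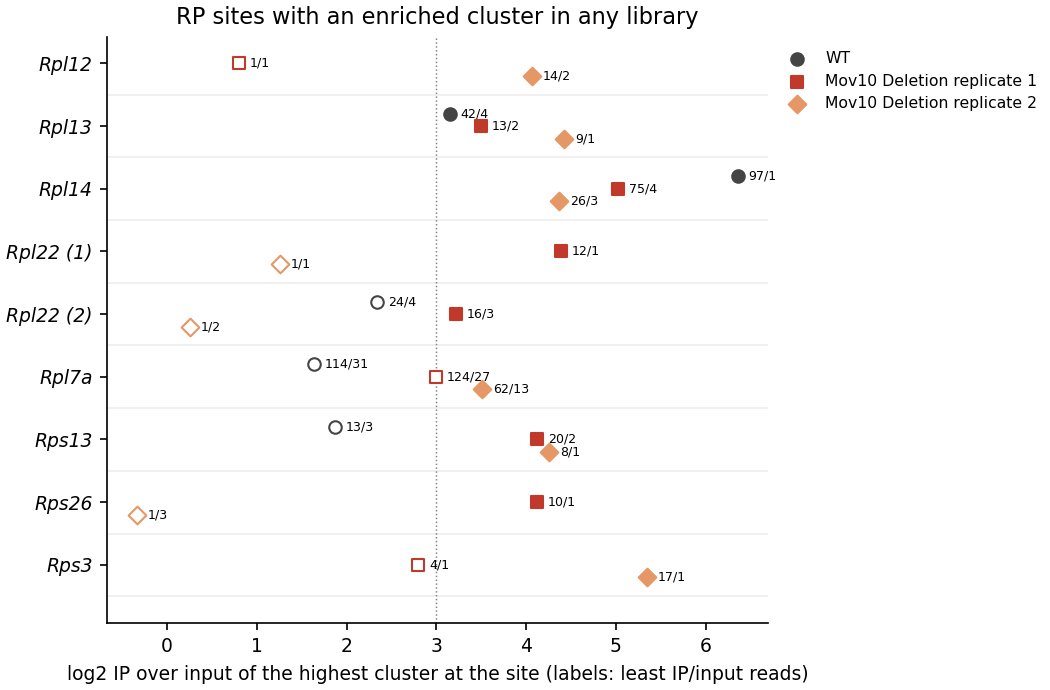
Log2 IP over input at 9 sites in 8 of the ribosomal protein genes where any library had an enriched cluster (highest cluster per library; filled symbols are enriched, labels give inferred IP reads over input reads, numbers in brackets separate the sites of *Rpl22*, the dotted line is the threshold of 3). *Rpl14* and *Rpl13* are filled in all 3 libraries, *Rps13* in both Mov10 Deletion replicates and the other genes shown in 1.

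*Rpl14*, a protein of the large subunit, had the highest ratio of the family in WT and in replicate 1. Its WT cluster (chr9:120574119-120574240) had 97 IP reads to 1 input read, a log2 of 6.36. Replicate 1 had 103 reads to 7 and 75 to 4 in a pair of adjoining clusters (log2 4.68 and 5.03), and replicate 2 had 44 to 7 and 26 to 3 (3.91 and 4.37). The ratio was high in all 3 libraries, with WT the highest, but a single WT input read carries that value. Adjoining clusters can share reads, so their reads are not to be added.

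At this place *Rpl14* had its chimeric reads as well. The target cluster (chr9:120574119-120574219 in WT, 120574116-120574220 in both *Mov10* Deletion replicates) was joined to miR-9-5p in all 3 libraries, with deposited scores of 18.4, 18.9 and 6.90. miR-16-5p was joined to it in WT (15.7) and replicate 1 (6), and miR-15a-5p in all 3 (4, 3 and 4.89). miR-15b-5p (3.70) and miR-433-3p (4) were listed in WT only, which makes 5 miRNAs for 1 cluster, the most of any ribosomal protein gene. The score is at least 3 throughout the files, and the sources used here do not describe it.

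The canonical GENCODE transcript of *Rpl14* (1176 nt, GRCm39) holds a run with 3 overlapping matches to the seed shared by miR-15a-5p, miR-15b-5p and miR-16-5p (TGCTGCT, searched on the transcript strand). The matched bases lie at chr9:120403271-120403283 of GRCm39, plus strand, in exon 6 and in the coding sequence. They are shown in capitals with flanking bases (chr9:120403266-120403288). The match to bases 2 to 7 of miR-9-5p (CCAAAG) that lies 22 nt before the run is at chr9:120403243-120403248, in the same exon and also coding. It too is shown with flanking bases (chr9:120403235-120403256).

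*Rpl14*, miR-15/16 seed run: gcagcTGCTGCTGCTGCTaaagc
*Rpl14*, miR-9-5p, 6 bases: agctgtggCCAAAGctgccatt

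No coordinates were converted between builds. The 300 bases around the RefSeq start of *Rpl14* occur once on chromosome 9 of GRCm39, which gives both builds the same zero. From it, the target cluster covers 2602 to 2702 nt in WT and 2599 to 2703 nt in the *Mov10* Deletion replicates, the miR-15/16 run covers 2688 to 2700 nt and the miR-9-5p match begins at 2660 nt. Both thus fall inside the chimeric cluster, counted by distance.

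Such matches are common. TGCTGCT occurred in 48.2% of 21593 canonical protein-coding transcripts and in 18 of 84 ribosomal protein transcripts (21.4%), whose median length is 1100 nt against 2927 nt. At least 3 matches in the coding sequence were found in 4.58% of all and in 2 of the 84. CCAAAG occurred in 66.5% of all transcripts and in 42.9% of those of ribosomal protein genes. The full match to miR-9-5p (ACCAAAG) was present in 28.4% of all transcripts. It was not in the canonical transcripts of *Rpl14*, *Rpl4* or *Rps15*, the 3 genes joined to miR-9-5p, which says only that these letters are not there. CCAAAG was not in that of *Rps15* either. A further CCAAAG of *Rpl14* (chr9:120403434-120403439 of GRCm39) lies downstream of the chimeric cluster. *Rpl4* has CCAAAG at positions 989 to 994 of its transcript, in the coding sequence, and its place was not compared with the cluster.

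*Rpl13*, also of the large subunit, was the other gene enriched throughout. In WT its cluster (chr8:123104763-123104969) had 42 IP reads to 4 input reads, log2 3.15. The overlapping cluster of the *Mov10* Deletion lists (chr8:123104760-123104892) had 24 to 5 reads, log2 3.06, in replicate 1 and 9 to 1, log2 4.42, in replicate 2. WT and replicate 1 were thus just over the threshold, and replicate 2 was higher on a single input read. The next cluster of the *Mov10* Deletion lists (chr8:123104955-123105045), which the WT cluster also overlaps, had 13 to 2 reads, log2 3.50, in replicate 1 and 1 to 1, log2 1.25, in replicate 2. With −log10 p of 3.90 and 9 IP reads in replicate 2, *Rpl13* was not enriched there at −log10 p of at least 5 or with at least 16 IP reads, which left *Rpl14* as the 1 gene enriched in both *Mov10* Deletion replicates. A chimeric cluster with miR-124-3p overlapped it in each library, with scores of 36.1 in WT, 9.65 in replicate 1 and 20.5 in replicate 2.

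*Rps13*, of the small subunit, had its enriched cluster at the 5′ end of the gene, 29 nt from the RefSeq start (chr7:116334092-116334161, minus strand). Replicate 1 had 20 IP reads to 2 input reads (log2 4.12) and replicate 2 had 8 to 1 (4.25). The WT cluster there had 13 to 3, a log2 of 1.87 with −log10 p of 1.38. WT was lower than both *Mov10* Deletion replicates at this site, on 3 input reads. A chimeric cluster with let-7e-5p lay on it in replicate 2, at the lowest score listed (3).

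Most sites enriched in 1 *Mov10* Deletion replicate rested on few reads in the other. At *Rps26* the 3 adjoining clusters had 9 or 10 IP reads to 1 input read in replicate 1 (log2 3.97 to 4.12) and a log2 of -0.33 in replicate 2. The 2 clusters of *Rpl12* had 14 to 2 reads in replicate 2 (log2 4.06) and -0.79 and 0.80 in replicate 1. *Rps3* had 17 to 1 in replicate 2 (5.34) and 4 to 1 in replicate 1 (2.80), with no WT cluster there.

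*Rpl22*, of the large subunit, had 3 enriched clusters in replicate 1 at 2 sites (log2 3.21 to 4.38). At the site nearer the 3′ end (chr4:152333686-152333735) WT had 24 to 4 reads (2.34) and replicate 2 had 1 to 2 (0.25). The next cluster downstream, just under the threshold, had 27 to 6 in replicate 1 (2.97) and 15 to 5 in replicate 2 (2.84). Its paralog *Rpl22l1* had no cluster in WT and 1 in each *Mov10* Deletion replicate, at 1.54 and 1.25.

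None of the other paralogs had an enriched cluster. The median over ribosomal protein genes of the highest ratio per gene was 1.22, 2.12 and 1.25, for comparison. *Rpl7l1* had 4, 8 and 8 clusters with highest ratios of 2.22, 2.97 and 2.84. *Rps4x*, the X-linked form, had 1, 2 and 2, at most 1.34, 0.80 and 2.58. *Rpl36al* had 1 cluster, in WT, at -1.24. *Rps27l*, a paralog of *Rps27*, had highest ratios of 1.08, 2.80 and 2.25.

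Chimeric target clusters were found in 24 of the 85 genes in any library. In WT 12 genes had one (15 clusters), in replicate 1 20 genes (23 clusters) and in replicate 2 9 genes (11 clusters). These are 14.1%, 23.5% and 10.6% of the genes, below the background of 28.5%, 34.1% and 24.1% over all protein-coding genes. Per 100 kb of gene body they were more frequent, at 4.85, 7.43 and 3.56 target clusters against 1.67, 2.53 and 1.15, and per 100 AGO2 clusters they were at 6.33, 7.26 and 3.46 against 5.03, 4.43 and 2.00. Fewer ribosomal protein genes had a target, then, but not fewer per AGO2 cluster. In each library 5 of the target clusters lay on a snoRNA. Off snoRNAs there were 10 target clusters to 189 AGO2 clusters in WT, 18 to 278 in replicate 1 and 6 to 278 in replicate 2. These rates were closer to the background in each library.

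**Figure D4:**
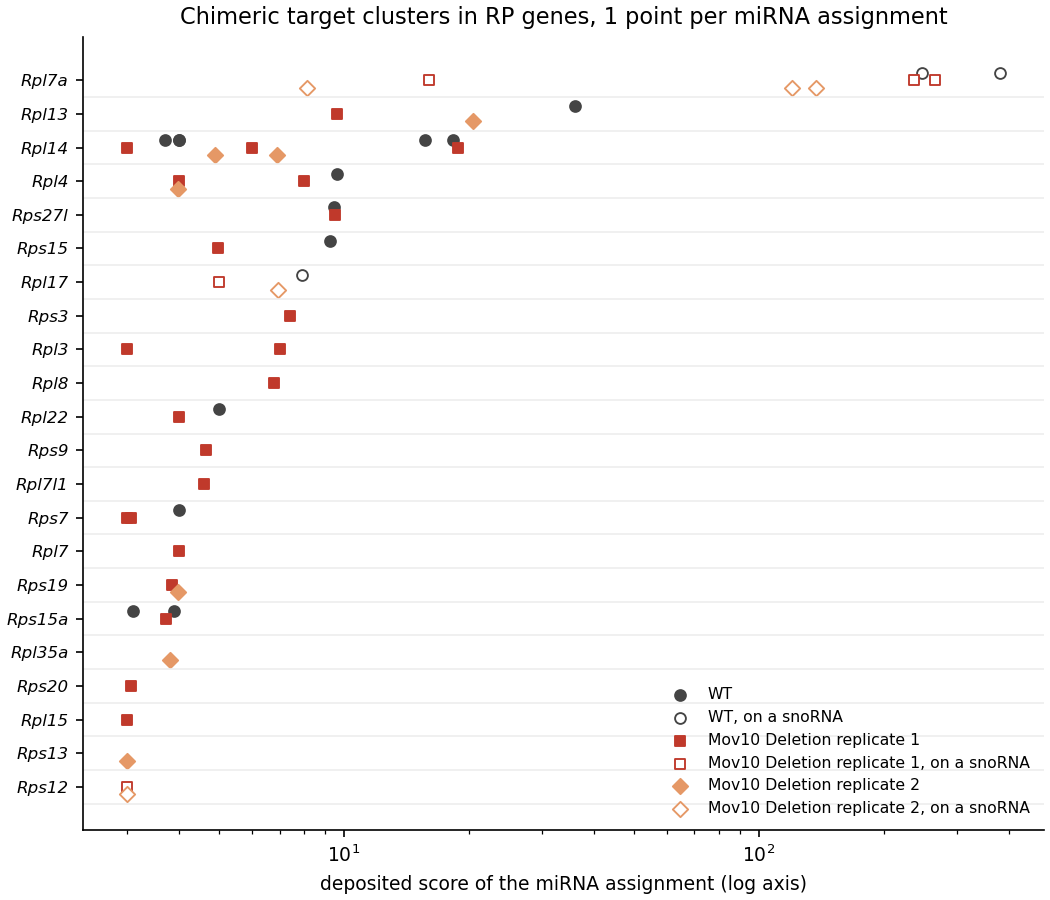
Deposited score of each miRNA assignment in 22 of the ribosomal protein genes with a chimeric target cluster (log axis; symbols separate the libraries, open symbols lie on a snoRNA). The WT score of *Rpl7a* reaches 382 and its Mov10 Deletion scores reach 266 (replicate 1) and 137 (replicate 2), and the highest of the other genes is *Rpl13* at 36.1 in WT.

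A total of 5 genes had a target cluster in all 3 libraries: *Rpl13*, *Rpl14*, *Rpl17*, *Rpl4* and *Rpl7a*. *Rps12* and *Rps19* had one in both *Mov10* Deletion replicates and not in WT, joined to a different miRNA in each replicate, and 2 genes in WT only. In 12 of the 24 genes the target was seen in 1 library. Of the 24 genes, 20.8% thus had a target in all libraries (background 41.5% of the 8864 protein-coding genes with a target in any), 8.33% in both *Mov10* Deletion replicates and not in WT (background 6.72%), 8.33% in WT only (background 7.4%) and 50% in 1 library (background 31.7%).

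The highest score among ribosomal protein genes was at *Rpl7a* in each library, with miR-124-3p. Its 2 target clusters in WT had scores of 248 and 382, and its 3 in each *Mov10* Deletion replicate had 16, 266 and 237 in replicate 1 and 8.17, 137 and 120 in replicate 2. The highest of each library ranked 11th of 22074, 15th of 30526 and 14th of 13468 assignments. All lie on or across the edge of the snoRNA LOC115489586 (chr2:26912530-26912600), and they are 11 to 28 nt wide. The AGO2 clusters there had 114 IP reads to 31 input reads in WT (log2 1.64), 124 to 27 in replicate 1 (2.998, just under the threshold) and 62 to 13 and 59 to 13 in replicate 2 (3.51 and 3.44, enriched). Among clusters on snoRNAs of ribosomal protein or other protein-coding genes, the 2 of replicate 2 were the only enriched ones in the 3 libraries. The strand of this snoRNA is not given in the tables used here.

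Chimeras on snoRNAs recurred elsewhere. *Rpl17* was joined to miR-219a-5p in all 3 libraries (scores 7.94, 5 and 6.94) on *Gm26202* (chr18:75001880-75001944), where the highest AGO2 log2 was -1.24, -3.11 and -0.33. *Rps12* was joined to miR-181a-5p in replicate 1 and to miR-26a-5p in replicate 2, both on LOC115487513. In each library 5 target clusters lay on a snoRNA, which leaves 10 in WT, 18 in replicate 1 and 6 in replicate 2.

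*Rpl4*, of the large subunit, was joined to miR-9-5p in all libraries at chr9:64177745-64177806 (WT), with scores of 9.63, 8.02 and 3.99. The AGO2 clusters there were deep and not enriched: WT had at least 42 IP reads to 41 input reads (log2 -0.21), replicate 1 had 48 to 75 (0.16) and replicate 2 had 39 to 58 (0.68). *Rps15* was joined to the same miRNA in WT (9.29) and replicate 1 (4.98), with ratios of 0.53 and up to 1.61. *Rps27l* was joined to miR-124-3p near its 3′ end in WT (9.45) and replicate 1 (9.55).

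miR-124-3p, a miRNA abundant in neurons, made up 7 of 19 assignments in WT (36.8%, exact 95% interval 16.3 to 61.6%), 7 of 27 in replicate 1 (25.9%, 11.1 to 46.3%) and 4 of 12 in replicate 2 (33.3%, 9.92 to 65.1%). Over all assignments of each library it made up 42.2%, 34.8% and 36.8%, within each interval. miR-9-5p followed with 3, 3 and 2 assignments, 15.8%, 11.1% and 16.7%, where the whole libraries had 9.12%, 6.69% and 6.86%. miR-125b-5p had 1, 2 and 1 (*Rps15a*, then *Rps7* and *Rps19*, then *Rpl35a*) and miR-128-3p 0, 2 and 1. For these 4 miRNAs the share of the whole library lay within the interval in each library, so a difference was not detectable with 12 to 27 assignments. Over all 24 miRNAs and 3 libraries the library share fell below the interval in 5 of 72 cases, each a miRNA with 1 assignment and listed because it had one.

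Target clusters lay farther along the gene than AGO2 clusters. The median relative position, from 0 at the 5′ end to 1 at the 3′ end of the gene body, was 0.72, 0.72 and 0.71 for ribosomal protein target clusters and 0.54, 0.56 and 0.56 for AGO2 clusters. Over all protein-coding genes it was 0.79, 0.71 and 0.72 for targets and 0.50, 0.51 and 0.51 for AGO2 clusters, so the family was like the rest in this. A target cluster overlapped an enriched AGO2 cluster in 2 of 15 cases in WT (*Rpl13* and *Rpl14*; 13.3%, exact 95% interval 1.66 to 40.5%), 2 of 23 in replicate 1 (8.70%, 1.07 to 28.0%) and 6 of 11 in replicate 2 (54.5%, 23.4 to 83.3%). The background over all target clusters was 15.1%, 11.7% and 11.7%. WT and replicate 1 thus held the background within their intervals and replicate 2 was above it, but 3 of its 6 were clusters of *Rpl7a* on the same snoRNA and are not independent.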

How the data were processed

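AGO2 chimeric eCLIP of postnatal day 0 whole brain was analysed from 3 IP libraries, 1 WT and 2 *Mov10* Deletion; the inputs enter only through the ratios. The authors removed UMIs and PCR duplicates (UMI-tools 1.1.1), trimmed adapters (cutadapt 3.2), set aside reads matching repeats and rRNA, mapped the rest to mm10 (STAR 2.7.7a) and called clusters with CLIPper; the processing notes also name Bowtie 1.2.3. The deposited cluster lists hold, per cluster, log2 IP over size-matched input and −log10 p (at most 400), and the deposited target lists hold a miRNA and a score (at least 3) whose meaning is not given in the sources used here. The study's methods describe peak calling within samples and its legend 2 *Mov10* Deletion brains; why their lists share nearly all coordinates is not given. Removal of repeat reads and the choice of input scaling bear on every ratio here.

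Clusters were assigned with bedtools 2.31.1 to RefSeq GRCm38.p6 gene bodies on the same strand when wholly inside. The strand of 65 ribosomal protein genes came from RefSeq tables and of 20 from GENCODE by symbol (129 of 23267 genes named in both differ). Exons of mm10 were not used here, so positions are along the gene body. Read counts were inferred from the ratio and the p-value together (tolerance 0.001 on −log10 p), with 1 IP read over 1 input read worth a fold of 0.845, 1.74 and 2.39 in WT, replicate 1 and replicate 2; below log2 0 the p is deposited as 0 and only the smallest reads giving the ratio are known. The inference was tested on reads simulated with the p-value model that it inverts. That test therefore cannot tell how well the model holds for the deposited values. Depth as total reads is not given in the files used. Shares carry exact Clopper-Pearson 95% intervals, which cover counting error only. Python 3.11.15, pandas 2.3.3 and scipy 1.17.1 were used, and seed matches were read from GENCODE vM39 canonical transcripts (GRCm39).

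The members and lists were chosen with earlier results of these data known. Genes named are the stalk proteins and *Rpsa*, the paralogs, the 5 with the highest log2 per library at −log10 p of at least 3, those enriched in WT only, in both *Mov10* Deletion libraries only or in all, those with a target in all libraries, the highest score, and the most clusters and input reads; *Rps4l* is not in the RefSeq table used. *Rpl12*, *Rpl35a*, *Rps7*, *Rps12*, *Rps15*, *Rps19* and the genes with clusters in 1 genotype or none were named after their values were seen. Alternatives were overlap of at least 1 nt, clusters of at least 20 nt, clusters on another gene left out, log2 of at least 2, −log10 p of at least 5, at least 16 IP reads, score of at least 5, single-miRNA clusters and each *Mov10* Deletion replicate left out. Some genes that meet these rules are counted but not reported by name here, and are not drawn in the plots of sites and of targets.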

Additional observations from a re-analysis of the deposited data

How the results depend on the processing

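Of 120 alternative values 97 stayed within 1.5 times the count, or within the 95% interval of the share or median, and 23 did not; the cause was not tested. At log2 of at least 2, 11 ribosomal protein genes were enriched in replicate 1, 7 in both *Mov10* Deletion replicates and 4 there and not in WT. At −log10 p of at least 5 these counts were 3, 1 and 0, with 1.26% of replicate 1 clusters. With at least 16 IP reads 4 genes were enriched in replicate 2, 1 in both and 0 there and not in WT, with 1.58% of replicate 1 clusters, so the calls of *Rpl13* and *Rps13* in replicate 2 rest on few reads and *Rpl14* was the 1 left in both. Leaving out a *Mov10* Deletion replicate gave 5 to 7 genes in place of the 3 enriched in both, 3 to 5 in place of the 1 absent from WT, and 9 to 20 genes with a target in place of 7. At a score of at least 5, genes with a target fell to 9 in replicate 1, 4 in replicate 2 and 4 in both, and miR-124-3p made up 50.0% and 66.7% of assignments. Leaving out clusters on snoRNAs, chosen after seeing the data, moved the WT median log2 to 0.60 and the genes with a target in both replicates to 4. No paired analysis was possible because there was 1 WT library and no test was made.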

Other observations

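Processed copies of these genes also carried clusters. Of 309 RefSeq pseudogenes named for a ribosomal protein gene, 21 had AGO2 clusters in WT and 22 in each *Mov10* Deletion library (31, 34 and 34 clusters), with median log2 of 0.43, 0.80 and 1.25. Enriched clusters numbered 0 of 31, 1 of 34 and 7 of 34, where the background over all protein-coding clusters was 2.15%, 5.19% and 3.09%. Replicate 2 was thus above it and the others were not. Adjoining clusters can share reads, so the 7 may not be separate sites. Target clusters numbered 4, 5 and 1. Of the AGO2 clusters 8, 5 and 5 lay inside a protein-coding gene on the same strand. Reads from a pseudogene and its parent mRNA are hard to tell apart, and how the mapping divided them is not given in the sources used here.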
